A study of Arabidopsis thaliana with 33 samples.

Results

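The 100 probe sets described here were chosen by a rule on their level along the Arabidopsis thaliana root: high in the outermost meristematic section and again in the maturation zone, and low in the sections between. They were taken from the 13513 probe sets that the platform annotation maps to 1 gene, out of 22746 on the array, so they make up 0.74% of the single-gene probe sets, and they stand for 100 distinct genes. The selection value was computed on log2 levels in each root. It is the smaller of the level in meristematic section 1 and the mean level of maturation sections 2 and 3, minus the highest level in meristematic sections 2 to 6 and elongation section 1. The smaller value of the 2 roots ranked the probe sets, and the 100 largest were kept. A value above 0 thus means that both ends of the root lay above every one of those 6 intervening sections in both roots.

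The series holds 33 arrays of the Arabidopsis root, with no genotype other than the reporter lines and no treatment given. Of these, 25 came from sections of 2 single roots of seedlings at 7 days after germination on standard medium. Counted from the tip, each root was cut into meristem 1 to 6, elongation 1 and 2 and maturation 1 to 4 (the last each near 500 micrometres long), and only root 1 has a section of the columella below the quiescent centre. A section holds every cell type at its level of the root, so fewer cells of a type and less RNA per cell cannot be told apart. The other 8 arrays hold cells freed as protoplasts from roots at 5 to 6 days and sorted by the fluorescence of a reporter line. These are S17 (phloem pole pericycle), S32 (protophloem and metaphloem), COBL9 (hair cells), JO121 (xylem pole pericycle), S4 (meristematic xylem), SUC2 (phloem companion cells), J2501 (a mix of pericycle, xylem and phloem) and RM1000 (lateral root primordia), with 1 array each and therefore no replicate check. The values are deposited linear intensities in arbitrary units, with array medians between 0.790 and 1.04.

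Along a root, cells are born in the meristem, lengthen in the elongation zone and take on their final form in the maturation zone. At the tip end of the meristem lies the quiescent centre, a small group of cells that rarely divide and keep the stem cells around them from differentiating. The labels do not state which section holds it. The columella, just below the quiescent centre, is the central part of the root cap, which protects the tip and senses gravity. Of the 100 genes, 19 carry a symbol in the annotation, and these fall into metal binding (MT1C), conjugation of small molecules (GSTU25, UGT87A2, UGT76C2 and GH3.17), organ growth (ARL), defence and immunity (NAI1, SAG101 and CSA1), recycling and traffic of cell contents (ATG8B, ATG8D and VPS60.2) and single roles. The other 81 have a locus code alone, and no role is given for them here.

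Several arrays of root 1 stood apart in the spread of their values. Of these the rule read meristem 1, the tests below used elongation 2, maturation 1 and maturation 4, and the columella section is only described. The SD of log2 levels over all probe sets was 0.137 in the columella section, 0.426 in elongation 2 of root 1, 0.634 in meristem 1 of root 1, 0.639 in maturation 4 of root 1 and 0.661 in maturation 1 of root 1. On the other section arrays it was 0.835 to 1.45. In 61 of the 100 the lower selection value was that of root 1. With meristem 1 of root 1 left out of the rule, 67 of the 100 were still among the 100 largest, and the tests are given below with and without the other arrays. The 2 tip sections also differed in the 1 measured gene of the root cap list, AT1G65570, which had 0.847 in meristem 1 of root 1 and 13.9 in meristem 1 of root 2. It was below 1 in every other section of both roots, the columella section included (0.992), and the part of this difference in the choice of the 100 was not tested. One label is also at odds with itself: elongation 2 of root 1 is placed in root 1 by its title and in root 2 by its description, and the title was followed.

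The name of the pattern holds for part of the set. The selection value was above 0 for 66 of the 100 and at or below 0 for 34, in which at least 1 intervening section of 1 root was as high as the lower of the ends. The median was 0.03 and the lowest -0.05 on the log2 scale. MT1C, with 1.88, stood alone, followed by AT1G33590 with 0.58, AT1G35190 with 0.40, AT5G06330 with 0.39 and AT4G36970 with 0.35, and 13 were above 0.2. The values just inside the threshold, of AT3G09830, AT5G59400, AT1G32700, AT3G43670 and AT1G77220, ran between -0.04 and -0.05. Just outside it AT1G48360, AT1G26800, scpl20, AT5G62420 and AT5G05710 had -0.05, so there was no gap at rank 100. Among all 22746 probe sets 107 had a value above 0, and 40 of these were probe sets with no gene listed, with a highest value of 2.18.

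**Figure D1:**
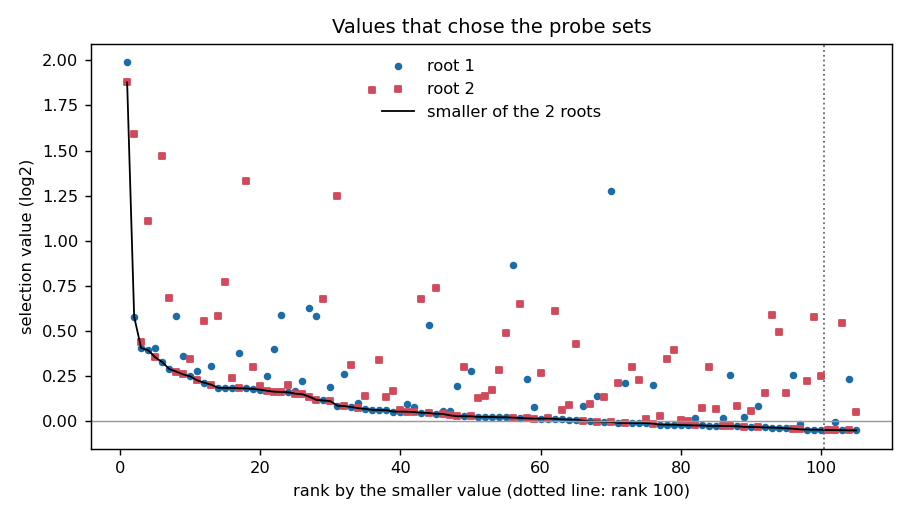
Selection value (log2) against rank for the 100 probe sets and the 5 next ones, with root 1 as circles, root 2 as squares and the smaller of the 2 as a line. MT1C lies at 1.88, every later rank at 0.58 or less, and the line crosses 0 at rank 66 and passes rank 100 without a step.

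Few of the genes had both ends of the root well above the mean level of the sections between. In 5 of the 100, MT1C, AT5G06330, AT2G38870, AT2G43535 and YLS5, meristem 1 and the mean of maturation 2 and 3 were each at least 2-fold above the mean of the 6 intervening sections in both roots. Taken singly, meristem 1 was at least 2-fold above that mean for 9 probe sets in root 1 and 24 in root 2, and the maturation sections for 25 and 35. These values chose the genes and are given as a description without a test.

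MT1C (AT1G07610) encodes a metallothionein, a small cysteine-rich protein that binds metal ions. From tip to base its intensity in root 1 was 12.7, 0.952, 0.768, 0.783, 0.773 and 0.780 in meristem 1 to 6, 3.21 and 1.91 in elongation 1 and 2, and 22.3, 30.0, 50.6 and 37.7 in maturation 1 to 4, and in root 2 it was 10.9, 0.512, 0.631, 0.502, 0.691 and 0.751, then 2.97 and 3.37, then 17, 37.7, 45.8 and 33.5. The drop behind the first section was thus more than 10-fold in both roots, and the maturation zone passed the tip from its first section on. It was the only one of the 8 listed metallothionein genes with a single-gene probe set, so hybridisation of related transcripts to that probe set was not tested.

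**Figure D2:**
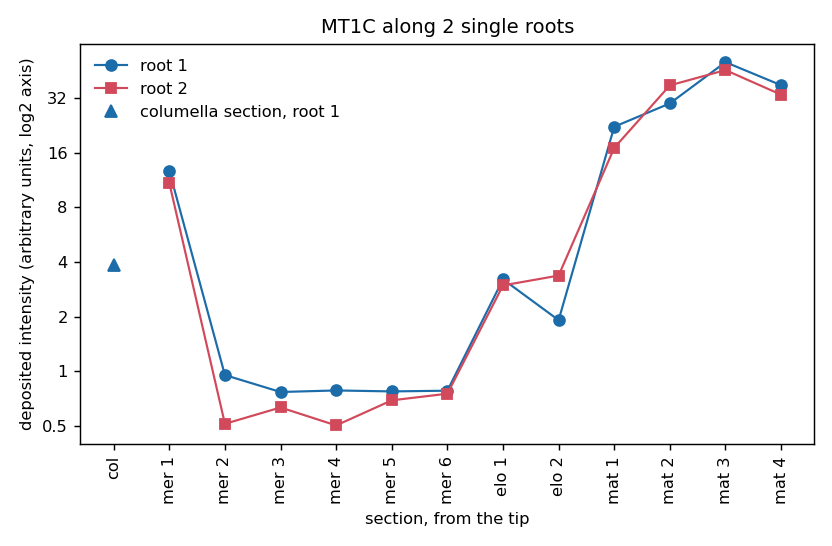
Intensity of MT1C (log2 axis) in each section from the tip, with root 1 as circles, root 2 as squares and the columella section of root 1 as a triangle. Meristem 1 lies at 12.7 and 10.9, meristem 2 to 6 below 1, and maturation 1 to 4 between 17 and 50.6.

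Of the 4 other genes with both ends raised, AT2G38870 had the widest range. Its intensity in meristem 1 was 3.58 in root 1 and 5.92 in root 2, against 0.974 to 2.39 and 1.01 to 4.89 in the intervening sections, and maturation 2 to 4 held 31.3, 46.4 and 32.4 in root 1 and 28.4, 32.4 and 27.1 in root 2. YLS5, a member of the DJ-1 protein family, had 8.11 and 9.41 in meristem 1 and 20.3, 19.0, 30.7 and 20.2 in maturation 2 and 3 of root 1 and root 2, against 1.80 to 3.35 and 2.93 to 9.44 in the intervening sections. In root 2 elongation 1 already reached the level of the tip, which put the selection value of YLS5 at 0.00. The genes of YLS5 and AT2G38870 are neighbours on chromosome 2 with no coding gene between them. Over the 24 section arrays of the shared positions their log2 levels had a Pearson r of 0.839, given as a description over arrays that share roots. The rule chose both genes for the same profile on most of these arrays, so a high r was partly set by the choice.

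AT5G06330 was higher at the tip than in maturation 2 and 3 in root 1 and about as high at both ends in root 2. It had 3.58 and 2.30 in meristem 1 and 2.12, 1.76, 2.97 and 2.01 in maturation 2 and 3 of root 1 and root 2, against 0.719 to 1.47 and 0.488 to 1.06 between. AT2G43535 had 2.57 and 10.2 in meristem 1 and, in maturation 2, 3 and 4, 1.45, 9.55 and 2.23 in root 1 and 2.07, 6.73 and 14.4 in root 2. In root 1 meristem 2 was nearly as high, with 2.42, so the roots differed in how sharply this gene fell behind the tip.

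The maturation zone was the higher of the 2 ends in most of the 100. The highest of the 12 sections lay in the maturation zone in both roots for 63 probe sets, in meristem 1 in both roots for 11, and in different regions of the 2 roots for 26. Only 31 had the same highest section in both roots. Many of the intensities were low: 46 of the 100 never passed an intensity of 2 in any of the 24 section arrays. The share of all probe sets that stayed so low was not counted. By mean level over the sections, 77 of the 100 lay above the median of all probe sets.

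Of the 11 genes highest in meristem 1 in both roots, 3 carry a symbol: HOS3-1, ARL and GH3.17. GH3.17, an enzyme that joins auxin to amino acids, had 2.39 in root 1 and 2.79 in root 2 in meristem 1, against 0.731 to 1.12 and 0.509 to 0.828 in the intervening sections. Its maturation 2 and 3 sections, at 1.02 and 1.26 in root 1 and 0.740 and 0.949 in root 2, overlapped the intervening range, so its maturation side was hardly above them. ARL, a gene known to promote organ growth by cell expansion, had 2.18 and 8.79 in meristem 1, against 0.920 to 1.40 and 0.948 to 3.14 between, and in maturation 2 and 3 it had 1.85 and 1.13 in root 1 and 6.41 and 3.94 in root 2. In root 2 ARL was above the intervening range at both ends, while in root 1 its maturation 3 section fell inside that range. HOS3-1 had 1.66 and 1.38 in meristem 1, against at most 0.992 and 0.903 in the intervening sections.

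Of the conjugating enzymes, GSTU25, UGT87A2 and UGT76C2 had their highest level in maturation 2 or 3 in both roots, unlike GH3.17. GSTU25, a glutathione transferase, which joins glutathione to foreign or reactive molecules, had 9.65 in root 1 and 15.1 in root 2 in meristem 1 and 18.6, 24.6, 27.3 and 22.8 in maturation 2 and 3 of root 1 and root 2. Its intervening sections held 3.70 to 8.49 and 5.51 to 10.1, and even its lowest section, elongation 2 of root 1 with 1.91, lay above the median of its array. UGT87A2, a glycosyltransferase, had 1.28 and 3.80 in meristem 1 and 5.95, 6.98, 12.1 and 6.42 in maturation 2 and 3, against 0.729 to 0.970 and 0.761 to 3.40 between. UGT76C2, which attaches glucose to cytokinins, had 1.52 and 1.40 in meristem 1 and 1.63, 2.94, 2.96 and 3.17 in maturation 2 and 3, against at most 1.01 and 1.25 between. These families were counted by symbol or synonym, so a family gene known by locus code alone was missed. Of the genes so found, 1 of 12 glutathione transferases and 2 of 43 UDP-glycosyltransferases were among the 100. The median selection values of the 12 and the 43 were -0.78 and -0.57, beside -0.65 over all single-gene probe sets.

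Of the genes with known roles in defence, NAI1 encodes a transcription factor needed for ER bodies, the compartments in which root cells store beta-glucosidases. It had 1.33 and 1.76 in meristem 1, against at most 1.19 and 1.53 between, and 3.34 in maturation 3 of root 1 and 2.74 in maturation 4 of root 2 at its highest. SAG101, a partner of the immune regulator EDS1, had 1.58 and 1.5 in meristem 1 and at most 1.05 and 1.09 between, and its maturation 2 and 3 sections held 1.07 and 1.04 in root 1 and 1.80 and 1.19 in root 2. CSA1, an immune receptor, stayed between 0.766 and 1.37 in all 24 sections. None of these 3 genes passed 3.34 in any section.

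The genes of recycling and traffic were likewise low. ATG8B and ATG8D (ATG8D chosen after its values were seen) belong to the family of proteins that coat the autophagosome, and both had a selection value below 0 (-0.04). ATG8B had 1.03 and 1.53 in meristem 1 and 1.04, 1.52, 1.73 and 1.85 in maturation 2 and 3, against up to 1.05 and 1.02 between. VPS60.2, of the ESCRT machinery, which sorts membrane proteins for breakdown, had 1.29 and 1.92 in meristem 1 against up to 1.10 and 1.90 between. Of the rest with a symbol, scpl28, a serine carboxypeptidase-like gene, was the strongest in maturation, with 3.46 and 7.54 in maturation 2 and 3 of root 1 and 6.19 and 8.62 in root 2, and 1.56 and 2.04 in meristem 1. ATSYTF, RING1, CML43 (a calmodulin-like calcium sensor) and HSA32 (needed for acquired heat tolerance) had selection values between -0.02 and 0.05.

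**Figure D3:**
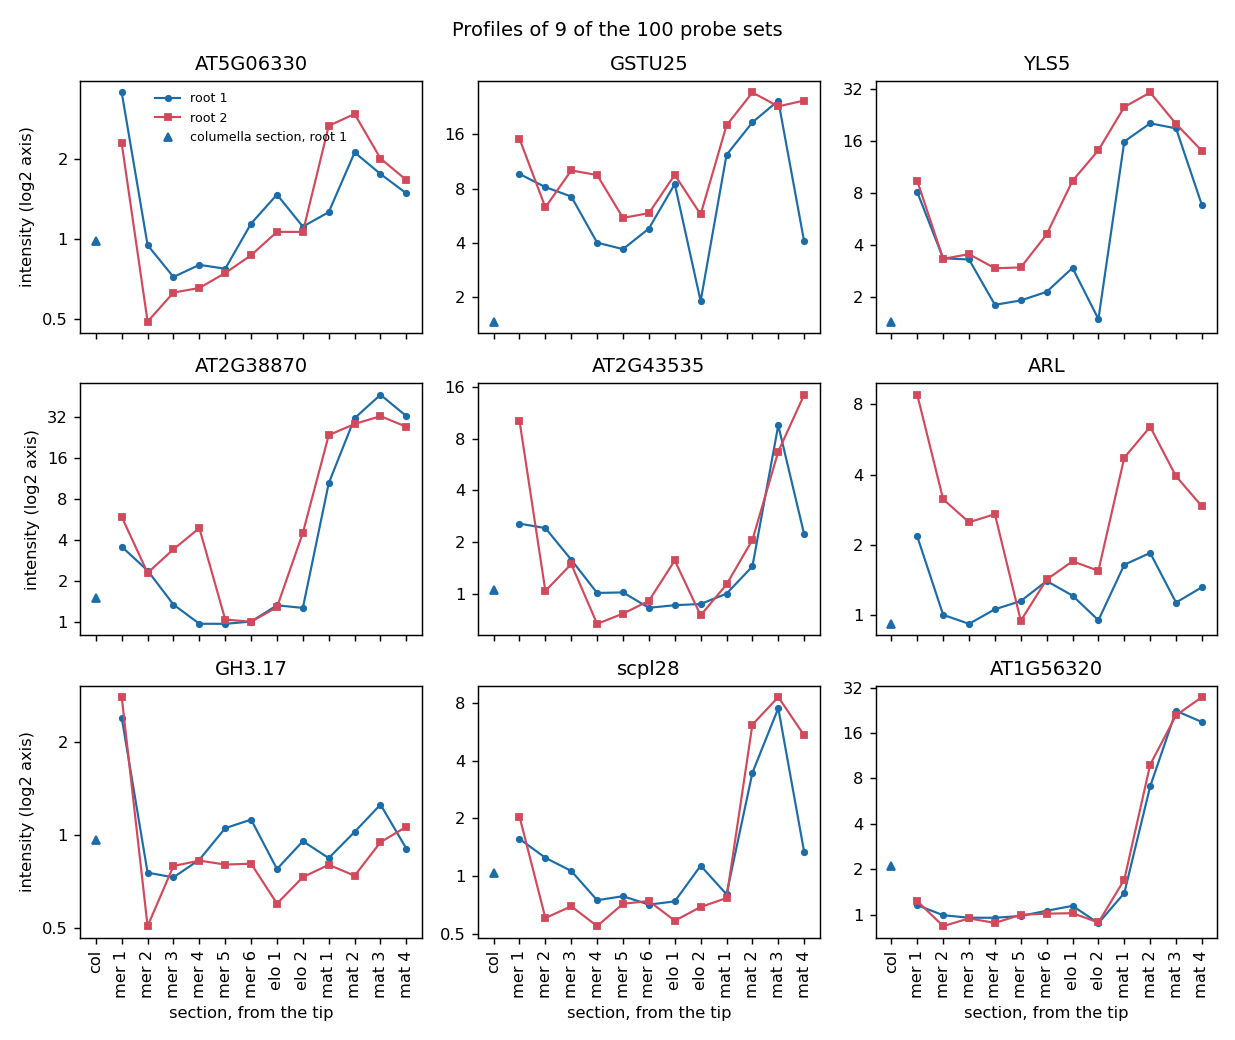
Intensity (log2 axis, own scale per panel) of 9 of the 100 genes in each section from the tip, with root 1 as circles, root 2 as squares and the columella section of root 1 as a triangle. AT5G06330, GSTU25, YLS5, AT2G38870, AT2G43535 and ARL have a second rise in maturation, GH3.17 stands out at the tip alone, and scpl28 and AT1G56320 rise mostly in maturation, AT1G56320 up to 22.5 in root 1 and 27.7 in root 2.

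As a group the 100 had a modest amplitude. The rule had read the sections given next, so the order of their levels was set by the choice. The median log2 level of the 100 was 0.24 in root 1 and 0.57 in root 2 in meristem 1, and -0.09 and -0.15 in meristem 2. In maturation 2 it was 0.40 and 0.83, and in maturation 3 it was 0.55 and 0.68. Pearson's r between the roots over the 12 sections, which the rule had mostly used, had a median of 0.686 over the 100 and reached 0.994 for AT1G56320 and 0.987 for MT1C. The roots shared least in HSA32 (-0.02), AT1G45150 (0.136), AT5G07910 (0.205), AT5G44000 (0.253), AT3G26020 (0.272) and AT5G48640 (0.281), whose log2 ranges were all under 1.

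**Figure D4:**
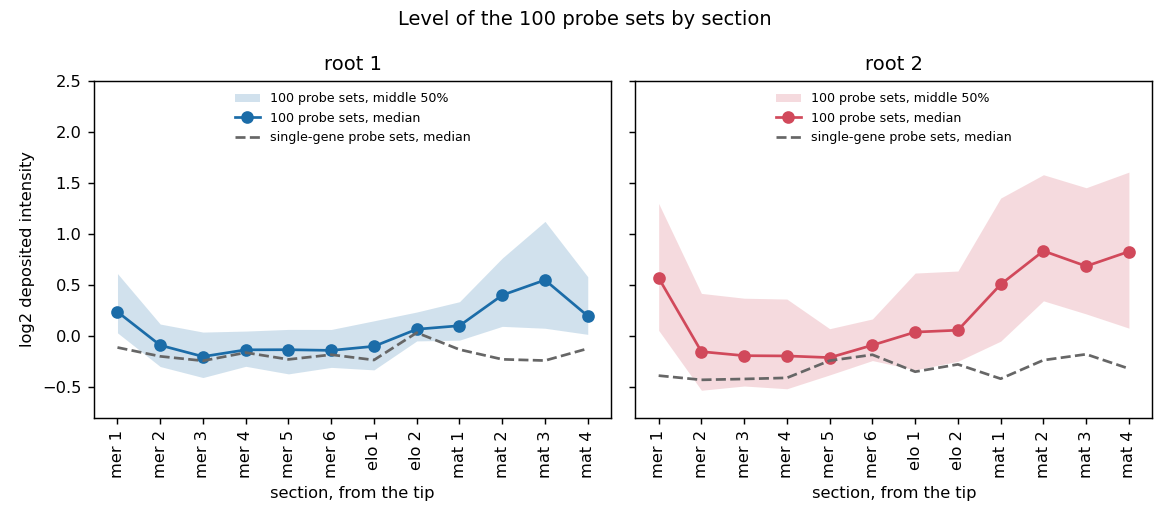
Median (line) and middle 50% (band) of the log2 intensity of the 100 probe sets in each section of root 1 (left) and root 2 (right), with the median of all 13513 single-gene probe sets dashed. The medians in meristem 1 are 0.24 and 0.57, those in meristem 2 are -0.09 and -0.15, and those in maturation 3 are 0.55 and 0.68.

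Whether the pattern carries over between plants was read by choosing in 1 root and looking in the other. Of the 100 single-gene probe sets with the largest value in root 1 alone, 23 had a value above 0 in root 2, against 1.81% of all single-gene probe sets, and of the 100 chosen in root 2 alone, 40 had a value above 0 in root 1, against 5.27%. Their median values in the root that had not chosen them were -0.45 and -0.04, beside -0.62 and -0.28 for all single-gene probe sets. Most probe sets chosen in 1 root therefore did not meet the pattern in the other, though more did than of probe sets at large.

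The 3 positions the rule did not read were elongation 2, maturation 1 and maturation 4. Elongation 2 lay above all 6 intervening sections in both roots for 19 of the 100 (4.65% of single-gene probe sets), maturation 1 for 43 (4.71%) and maturation 4 for 61 (5.76%). The rule had chosen genes low in those 6 sections, so these counts are a description. Elongation 2 was the highest section of all for 12 of the 100 in root 1, the array with the narrow spread, and for 1 in root 2.

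Across these 3 positions the 100 were compared with limma on log2 levels, with the root as a block (n = 2 roots). Benjamini-Hochberg adjustment was over all 22746 probe sets, at 0.05. The rule had read sections next to these positions in the same roots. It had chosen the 100 for high levels in maturation and low levels in elongation there. A lead of the 100 for maturation over elongation was thus partly set by the choice. Their medians and counts beside those of all probe sets are a description. Maturation 4 was higher than elongation 2 for AT1G56320 and MT1C, 2 of the 100, against 0.259% of all probe sets (59 called higher), and lower for 0 of the 100 and 0% of all. The median log2 difference was 0.32 for the 100 and -0.09 for all probe sets, and 84 of the 100 lay above 0, as did 41.6% of all. The median of all probe sets was 0.01 with arrays scaled to a common interquartile range, where that of the 100 was 0.33. A filter on low values left 77 of the 100 and 11373 of all probe sets, with medians of 0.44 and 0.18. Of these, 70 of the 77 and 68.3% of all lay above 0, so the lead of the 100 was smaller there. At an unadjusted p under 0.05, 23 of the 100 were higher, against 8.46% of all probe sets, and 0 were lower, against 8.92%. With the filter, 22 of the 77 were higher, against 1485 of the 11373, and 0 were lower, against 197.

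AT1G56320 had 18.9 in root 1 and 27.7 in root 2 in maturation 4, against 0.876 and 0.886 in elongation 2. The log2 difference was 4.70 ± 0.189 (SE, n = 2 roots; limma adjusted p = 0.0128) and was 4.43 and 4.97 in the single roots. In MT1C, with 37.7 and 33.5 in maturation 4 against 1.91 and 3.37 in elongation 2, it was 3.81 ± 0.322 (limma adjusted p = 0.0402), with 4.30 and 3.31 in the single roots. The groups did not overlap in either gene, which adds nothing to the calls with 2 values per group. AT2G38870 had a difference of nearly that size, 3.62 ± 0.498, and did not pass (limma adjusted p = 0.0921), nor did AT1G25275 with 1.84 ± 0.203 (limma adjusted p = 0.0647). Without either elongation 2 array, without the block, after quantile normalization, with an offset of 1 or with arrays scaled to a common interquartile range, 0 of the 100 passed. Without maturation 4 of root 1 the log2 difference was 4.90 in AT1G56320 and 3.61 in MT1C. Without maturation 1 of root 1 it was 4.70 and 3.81.

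Maturation 1 differed from elongation 2 for 0 of the 100 and for 0% of all probe sets in each direction by limma. At an unadjusted p under 0.05, 13 of the 100 were higher (6.87% of all) and 0 lower (5.24% of all). A fit to all 24 section arrays called 2 of the 100 and 9 of all 22746 probe sets. That fit took its variance also from arrays the rule had read, so its calls are not independent of the choice. The median log2 difference was 0.24 for the 100 and -0.11 for all probe sets. MT1C had 22.3 and 17 in maturation 1 against 1.91 and 3.37 in elongation 2, a log2 difference of 2.94 ± 0.322 that did not pass (limma adjusted p = 0.186).

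Maturation 4 was higher than maturation 1 for 1 of the 100, AT1G56320, against 0.0615% of all probe sets (14 called), and lower for none (0% of all). At an unadjusted p under 0.05, 15 of the 100 were higher (3.83% of all) and 3 lower (2.72% of all). The intensities of AT1G56320 were 18.9 and 27.7 in maturation 4 and 1.39 and 1.70 in maturation 1, a log2 difference of 3.90 ± 0.189 (SE, n = 2 roots; limma adjusted p = 0.0280). In maturation 2 AT1G56320 had reached 7.08 and 9.87, while MT1C already had 22.3 and 17 in maturation 1. The median was 0.10 for the 100 and 0.00 for all probe sets. The call was lost without either elongation 2 or either maturation 1 array, where the log2 difference of AT1G56320 stayed between 3.89 and 3.90 and the limma adjusted p was 0.0533 to 0.165, in a range of 6.54e-08 to 1 over all settings. Without maturation 4 of root 1 the log2 difference of AT1G56320 was 4.09.

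Gene lists for the processes that could mark either end were read beside the 100. None of the measured genes for dehydrins (6), developmental cell death (4), hair cells (2), the root cap (1) or the stem cell niche (1) was among the 100. Of 9 calcium-binding EF-hand genes found by symbol or synonym, 1, CML43, belonged to the 100. At 0.74% of single-gene probe sets chosen, lists this short would hardly hold a member in any case. Beyond AT1G65570, given above, the only measured marker of the tip was AGL42 of the stem cell niche list, with 0.918 and 0.802 in meristem 1 of root 1 and root 2 and between 0.637 and 1.12 in the other sections. Of the 5 measured ER body genes none was among the 100, although their regulator NAI1 was. PYK10, the main beta-glucosidase of ER bodies, was the 1 of the 5 that passed for maturation 4 over elongation 2, with 13.6 and 36.7 against 1.96 and 4.47 and a log2 difference of 2.92 ± 0.158 (SE, n = 2 roots; limma adjusted p = 0.0232). PYK10 missed the set with a selection value of -0.11. The stress regulator STZ passed the same test with 2.09 ± 0.181 (limma adjusted p = 0.0435), and its selection value was -2.38.

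The columella section, a single array with a narrow spread, showed few of the 100. Their median intensity was 1.00, beside 0.989 for all single-gene probe sets, and 75 of the 100 were lower in the columella section than in meristem 1 of root 1, as were 38.2% of all probe sets. The rule had chosen the 100 for a high level in that meristem 1 section, so this count is no result about them. Above 1.5 were 4 of the 100, against 0.84% of all probe sets: MT1C with 3.84, AT1G56320 with 2.09, AT1G25275 with 1.91 and AT2G38870 with 1.52. In meristem 1 of root 1 the same genes had 12.7, 1.15, 14.9 and 3.58. AT1G56320 was the exception among them, higher in the columella section than in the meristematic section next to it. The lowest were NAI1 (0.899), ATSYTF (0.902) and AT5G07910 (0.920).

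Among the 8 sorted populations, which the rule had not used, the 100 were most often highest in S17 (phloem pole pericycle). Cell types outside these 8 populations have no sorted array, so the highest population does not place a gene in a cell type. Of the 100, 38 were highest in S17, against 9.95% of all probe sets, 17 in COBL9 (16.3%), 14 in RM1000 (7.03%), 11 in SUC2 (4.02%), 9 in S32 (8.56%), 8 in S4 (23.5%), 2 in J2501 (27.4%) and 1 in JO121 (3.30%). Among the 77 whose mean level over the sections exceeded the median of all probe sets, 31 were highest in S17, against 12.8% of all probe sets above that median. The other counts were 11 in COBL9 (24.9%), 11 in RM1000 (8.20%), 8 in SUC2 (5.42%) and 8 in S4 (35.5%). In S32 there were 7 (9.21%), in JO121 1 (1.58%) and in J2501 0 (2.34%). This comparison was added after the data were seen. The median log2 level of the 100 was 0.57 in S17, 0.47 in RM1000 and 0.41 in SUC2, and between -0.11 and 0.20 in the others. With 1 array per population there is no test of these counts.

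Few of the 100 stood out in 1 population. At least 2-fold above the highest of the other 7 populations were 4 of the 100 in S32 (2.27% of all probe sets), 4 in COBL9 (3.77%), 1 in S17 (0.563%), 1 in S4 (2.62%), 1 in SUC2 (0.536%) and 1 in RM1000 (0.466%), and none in JO121 (0.0572%) or J2501 (0.044%). In S32, AT1G13990 had 10.4 against 2.35 in the next population, ATG8B had 4.88 against 1.47, and AT2G32430 had 3.12 against 1.36. ATG8D was also highest in S32, with 5.67 against 3.46 in SUC2, so both autophagosome genes had their highest level in the protophloem and metaphloem array.

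Hair cells held the highest level of AT2G38870, 10.7 in COBL9 against 2.65 in SUC2, and of scpl28, 1.70 against 0.759, and AT1G74010 had 2.40 against 0.876. YLS5, the neighbour of AT2G38870, was not confined in this way: it had 10.7 in RM1000, 7.94 in S17 and 7.21 in COBL9, against 1.36 to 2.95 in the other 5. In S17, HSA32 had 5.11 against 1.71, AT3G60070 had 5.06 against 2.75 and HOS3-1 had 3.69 against 2.13. HSA32 never passed 1.34 in any section of either root.

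In the remaining populations the largest leads were those of AT1G55265 in S4 (3.64 against 1.16), AT1G68500 in SUC2 (3.59 against 1.33) and AT2G43535 in RM1000 (10.1 against 4.59). GH3.17 was highest in companion cells, with 1.82 in SUC2 against 1.24 in RM1000. MT1C was above 2 in 7 of the 8 populations, with 19.7 in SUC2, 16.6 in COBL9, 15.1 in RM1000, 9.88 in S32, 6.17 in S17, 5.34 in JO121 and 2.95 in J2501, against 0.809 in S4. AT1G56320, in contrast, stayed between 0.842 and 1.34 in all 8, although it reached 27.7 in maturation 4.

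**Figure D5:**
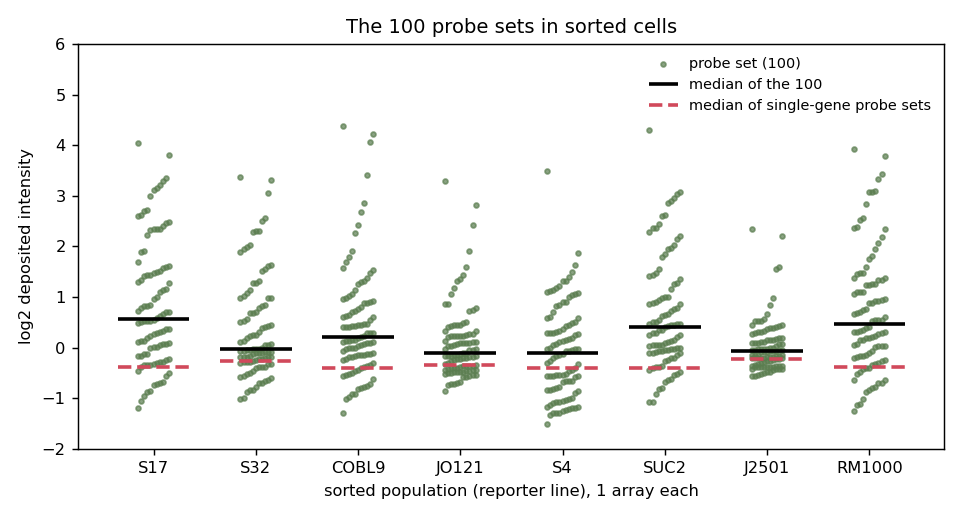
Log2 intensity of each of the 100 probe sets (points) in the 8 sorted populations, 1 array each, with the median of the 100 as a solid line and the median of the 13513 single-gene probe sets dashed. The median of the 100 is highest in S17 (0.57), RM1000 (0.47) and SUC2 (0.41).

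Besides YLS5 and AT2G38870, the pairs AT4G03020 and AT4G03030 on chromosome 4 and AT5G01950 and AT5G01960 on chromosome 5 are neighbouring coding genes of which both were chosen. Their log2 levels over the 24 section arrays had a Pearson r of 0.650 and 0.758, again as a description of genes chosen for the same profile. Whether neighbours are more alike than other pairs of the 100 was not tested. Chromosome 1 held 35 of the 100 genes, against 25.8% of single-gene probe sets, and chromosome 3 held 12, against 20.5%.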

How the data were processed

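The authors deposited a linear intensity per probe set for each array, which they had scaled in a way not given in the sources used here, as are background correction and summarisation. Per the labels' protocols, RNA was amplified in 2 cycles before hybridisation. The number of arrays limits the precision, and no measure of depth exists for them. Intensities were analysed as log2, neither offset nor filtered. Gene names were taken from the platform annotation, and 13436 of the 13513 single-gene probe sets matched TAIR10.1. The design names 2 to 3 replicates per reporter line, and whether the 1 array per line analysed here is a mean is not stated. Naming series differ between the 2 roots, so a batch and a root cannot be told apart.

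The members and gene lists were chosen with earlier results of these data known. Tests used limma 3.58.1 (R 4.3.3) on the 6 arrays of the positions the rule had not read, with position and root as terms, 2 residual and 3.03 prior degrees of freedom, a two-sided moderated test and Benjamini-Hochberg adjustment over 22746 probe sets. Sections of 1 root come from the same plant: the difference between roots at a position correlated with that at another (median r 0.477 over 66 pairs, from -0.233 to 0.834). With the root as a term, the p-values do not measure the overall difference between the 2 roots. They rest on how far the differences between positions varied from root to root, pooled over the 3 positions and moderated over all probe sets. The step was checked on simulated data. Of 41 lists, 25 had a measured gene and 4 a member. Genes were named by rule: the 15 highest-ranked with a symbol and the 5 highest of any name, the 5 on each side of the threshold, genes called per test (up to 6 a direction), list members (up to 4) and called list genes (up to 4), the 3 leading per population, the 5 highest and 3 lowest in the columella section, and the 6 least alike between roots. Genes whose both ends were at least 2-fold up, those that just missed a test and neighbours were named after their values were seen. A planned count of promoter motifs and all sequences are not analysed here.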

Additional observations from a re-analysis of the deposited data

How the results depend on the processing

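The list of 100 depends on its definition. Of the 100, 54 were kept after quantile normalization and 54 with arrays scaled to a common interquartile range, 49 with the mean in place of the maximum on the low side, 65 with elongation 2 added to the low side, 26 with root 1 alone and 53 with root 2 alone, while an offset of 1 kept 97 and the smaller of maturation 2 and 3 kept 84. MT1C ranked 1 or 2 each time. For maturation 4 against elongation 2, the 2 calls among the 100 (59 over all probe sets) became 0 (0) with no replicate block, after quantile normalization, with an offset of 1 or with a common interquartile range, 4 (123) with a filter on low values and 6 (150) with all 24 section arrays. Leaving out 1 array at a time gave 0 to 10 (0 to 512). For maturation 1 against elongation 2, all 24 arrays gave 2 (9) in place of 0. The fits to all 24 arrays took their variance also from arrays the rule had read. For maturation 4 against maturation 1, the 1 call (14) became 0 (0) with no replicate block, quantile normalization, an offset of 1 or a common interquartile range, and the count over all probe sets became 36 with the filter, 84 with all 24 arrays and 38 with a trended prior variance. Leaving out 1 array gave 0 to 7 (0 to 225), and with an array left out the lone one is assumed to vary like the others. The median log2 difference of the 100 there was -0.0003 with a common interquartile range, against 0.10, and -0.004 to 0.19 with 1 array left out. For the other contrasts it stayed above 0 in every setting tried, between 0.17 and 0.46 for maturation 4 and between 0.03 and 0.42 for maturation 1 with 1 array left out. A common interquartile range set the median of all probe sets for maturation 1 against elongation 2 at 0.06, against -0.11, and that of the 100 at 0.33. The causes were not tested. The 12 genes at least 2-fold above the other sorted populations became 2 at 4-fold and 6 with an offset of 1. Over these settings the count read in the other root stayed within 1.5 times. With 2 roots and narrow-spread arrays in root 1, small differences were not detectable.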
